A study of Mus musculus with 17 samples.

Results

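The 10 genes described here belong to the endoplasmic reticulum (ER) stress response, also called the unfolded protein response: Hspa5, Hyou1, Sdf2l1, Dnajb9, Pdia4, Manf, Herpud1, Xbp1, Atf4 and Ddit3. They were taken by gene symbol from the expression tables of whole mouse lungs, where each was found once among 24327 genes, and all 10 passed the filter on low values. The genes lie on chromosomes 2 (Hspa5), 6 (Pdia4), 8 (Herpud1), 9 (Hyou1 and Manf), 10 (Ddit3), 11 (Xbp1), 12 (Dnajb9), 15 (Atf4) and 16 (Sdf2l1). The set was chosen by the measured values of Sdf2l1, which moves in opposite directions in the 2 experiments of the study. Those values are given as a description with no test. The study measured bulk RNA-seq in 17 lung libraries. In the first experiment, lungs labelled LysMcre;Nlrp3A350V (Nlrp3 mutant, n = 3) were set against lungs labelled Control (n = 3). In the second experiment, lungs labelled LysMcre;Nlrp3A350V;Il181r+/- (het mutant, n = 3) and LysMcre;Nlrp3A350V;Il181r-/- (null mutant, n = 4) were set against lungs labelled Il18r1 control (n = 4). Nlrp3 A350V is a gain-of-function allele of the inflammasome sensor Nlrp3, and LysM-cre is used to switch it on in myeloid cells. Which lung cells carried the active allele was not measured here. Il18r1 encodes the receptor chain that binds the cytokine IL-18. The labels give neither the alleles of the 2 control groups nor the age and sex of the mice. They do not say that each library came from its own animal, so p-values reflect only the scatter between these samples, which may be technical.

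When unfolded proteins build up in the ER, 3 sensors in its membrane signal to the nucleus. IRE1 splices the mRNA of Xbp1 into the form that encodes an active transcription factor, ATF6 is cut to release another, and PERK slows translation while letting Atf4 be translated, which in turn raises Ddit3 (CHOP). The targets of these factors include chaperones that fold proteins in the ER lumen, as well as proteins of ER-associated degradation, which move misfolded proteins out to the proteasome. In the lung, secretory epithelial cells such as alveolar type 2 cells and airway club cells carry a heavy load of secreted protein, and Xbp1 is also used by immune cells that secrete.

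Promoter sequence was matched for 8 of the 10 genes in RefSeq's table (GRCm38.p6), each from 250 bases before to 50 bases after the annotated start; Hyou1 and Manf were not matched. Shown are the promoters of Herpud1, which had the largest log2 fold changes of the set, of Hspa5, and of Sdf2l1, the gene whose direction differed between the experiments. Capitals mark exact matches, searched on both strands, to 4 motifs of this response: the ER stress element (CCAAT, 9 bases of any kind, CCACG), the ER stress element II (ATTGG, 1 base of any kind, CCACG), the unfolded protein response element (TGACGTG) and the C/EBP-ATF response element (TTGNATCA). The Herpud1 window lies at chr8:94386179-94386478 on the plus strand, the Hspa5 window at chr2:34771840-34772139 on the plus strand, and the Sdf2l1 window at chr16:17132334-17132633 on the minus strand, all on GRCm38, and each takes in the upstream sequence and the first bases of the transcript.
Herpud1: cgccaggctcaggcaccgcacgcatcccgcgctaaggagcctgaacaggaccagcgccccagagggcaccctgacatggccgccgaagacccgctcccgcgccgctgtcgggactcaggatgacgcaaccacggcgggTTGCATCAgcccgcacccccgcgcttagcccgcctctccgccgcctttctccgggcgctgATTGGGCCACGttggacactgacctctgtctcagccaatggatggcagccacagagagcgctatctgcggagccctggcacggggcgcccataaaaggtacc
Hspa5: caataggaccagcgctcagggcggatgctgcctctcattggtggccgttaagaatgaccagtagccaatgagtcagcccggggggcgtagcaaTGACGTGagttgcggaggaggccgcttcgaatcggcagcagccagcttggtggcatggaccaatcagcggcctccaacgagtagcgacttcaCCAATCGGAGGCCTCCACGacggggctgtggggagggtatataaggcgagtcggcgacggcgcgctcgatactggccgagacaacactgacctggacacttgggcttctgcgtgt
Sdf2l1: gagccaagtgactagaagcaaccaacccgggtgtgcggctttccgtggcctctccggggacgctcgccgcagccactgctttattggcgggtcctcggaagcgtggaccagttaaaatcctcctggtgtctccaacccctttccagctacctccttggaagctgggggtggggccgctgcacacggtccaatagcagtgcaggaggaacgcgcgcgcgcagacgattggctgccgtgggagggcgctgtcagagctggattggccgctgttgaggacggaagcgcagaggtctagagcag
In the Herpud1 window, the first capitals are a C/EBP-ATF response element whose first base lies at -112 from the start, and the second are an ER stress element II at -52. In the Hspa5 window, an unfolded protein response element begins at -157 and an ER stress element at -65. The Sdf2l1 window and the windows of the 5 other matched genes held no exact match to the 4 motifs. Among 32851 promoters of the same length, the ER stress element was found in 0.119%, the ER stress element II in 0.0365%, the unfolded protein response element in 2.01% and the C/EBP-ATF response element in 2.67%. The matches describe letters in these windows and were not measured as binding.

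Levels are given as FPKM, in which fragment numbers are divided by the length of the gene and the size of the library. Fold changes are differences of log2(FPKM + 1), tested across all genes with limma and called at a Benjamini-Hochberg adjusted p under 0.05. Libraries held between 13147 and 13450 genes at 1 FPKM or more, and their depth relative to the first library of the same table was 0.790 to 1 for experiment 1 and 0.753 to 1.15 for experiment 2. The tables give no counts, so no counting interval was made. Il18r1, the targeted gene of the second experiment, averaged 8.26 ± 0.885 FPKM in null mutant lungs (SD, n = 4) and 30.6 ± 0.667 FPKM in het mutant lungs (SD, n = 3), against 14.3 ± 0.743 FPKM in Il18r1 control lungs (SD, n = 4). The level in lungs labelled het mutant was thus above that of the controls, and that in lungs labelled null mutant was not 0. In the first experiment Il18r1 averaged 41.6 ± 1.71 FPKM in Nlrp3 mutants and 20.7 ± 2.49 FPKM in Control lungs (SD, n = 3 each). Which part of Il18r1 the allele removes is not given in the labels, so these levels do not check them. Xist was above 1 FPKM in 8 libraries, namely each Nlrp3 mutant, each het mutant and numbers 2 and 4 of the null mutants, and at most 0.0426 FPKM in the other 9, which included all 7 controls. Apart from the null mutants, sex and genotype therefore cannot be told apart.

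Markers of several cell types moved with the genotypes. Summed over 8 neutrophil markers, FPKM lay between 9278 and 14921 in Nlrp3 mutant lungs and between 358 and 1278 in Control lungs. In the second experiment it lay between 9954 and 19177 in het mutants, 2112 and 2901 in null mutants and 204 and 306 in Il18r1 controls. All 8 markers were called higher in Nlrp3 mutants, in het mutants and in null mutants against their controls. For the marker counts in this paragraph, the shares over all genes were 28.0% higher and 27.6% lower in Nlrp3 mutants. They were 27.3% and 28.9% in het mutants, and 1.87% and 0.102% in null mutants. Summed over 10 alveolar type 2 cell markers, FPKM lay between 28369 and 35729 in Nlrp3 mutants and between 20245 and 22132 in Control lungs. In the second experiment it lay between 24660 and 25598 in het mutants, 15088 and 19285 in null mutants and 16382 and 17416 in Il18r1 controls. The sums over 8 airway secretory cell markers were 25583 to 26973 in Nlrp3 mutants and 10747 to 16207 in Control lungs. In the second experiment they were 26433 to 27380 in het mutants, 11400 to 14035 in null mutants and 13398 to 15988 in Il18r1 controls. The sums over 8 macrophage markers were 819 to 1390 in Nlrp3 mutants and 178 to 246 in Control lungs, with 7 called higher. In the second experiment they were 872 to 1096 in het mutants, 221 to 303 in null mutants and 196 to 241 in Il18r1 controls, with 8 called higher in het mutants and 1 in null mutants. Of 10 markers of matrix-making fibroblasts, 8 were called lower in Nlrp3 mutants and 8 in het mutants. Eln (elastin) was the 1 called higher in Nlrp3 mutants, and none was higher in het mutants. Of 5 endothelial markers, 3 were called lower in Nlrp3 mutants and 2 in het mutants, and none was called higher in either. Of 4 plasma cell markers that passed the filter, 3 were called lower and 1, Sdc1, higher in each of the 2 mutants. Sdc1 averaged 214 ± 4.11 FPKM in Nlrp3 mutants and 160.0 ± 2.22 FPKM in Control lungs (SD, n = 3 each), and it is also an epithelial gene. The defining plasma cell genes Jchain and Tnfrsf17 stayed at or under 0.302 FPKM in every library, while Mzb1, a further plasma cell and B cell gene, averaged 0.647 ± 0.0517 FPKM in Nlrp3 mutants and 3.39 ± 0.630 FPKM in Control lungs (SD, n = 3 each). In whole lung, a change in how many cells of a type are present and a change in RNA per cell cannot be told apart, and the part of these markers in the results that follow was not tested.

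In Nlrp3 mutant lungs, the 10 genes divided into those that were higher than in Control lungs and those that were lower. Herpud1, Dnajb9 and Xbp1 rose, by ratios of mean FPKM of 2.56, 1.57 and 1.39, while Pdia4, Hyou1, Hspa5 and Manf fell to ratios of 0.645, 0.703, 0.828 and 0.892. Atf4 and Ddit3 had ratios of 1.11 and 1.16 and did not pass the test. Of the 9 genes other than Sdf2l1, 3 were called higher and 4 lower, where 55.6% of the 13549 genes tested were called, 28.0% higher and 27.6% lower. All 9 had groups that did not overlap, 5 above and 4 below, as did 32.2% of all genes above and 32.0% below.

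**Figure D1:**
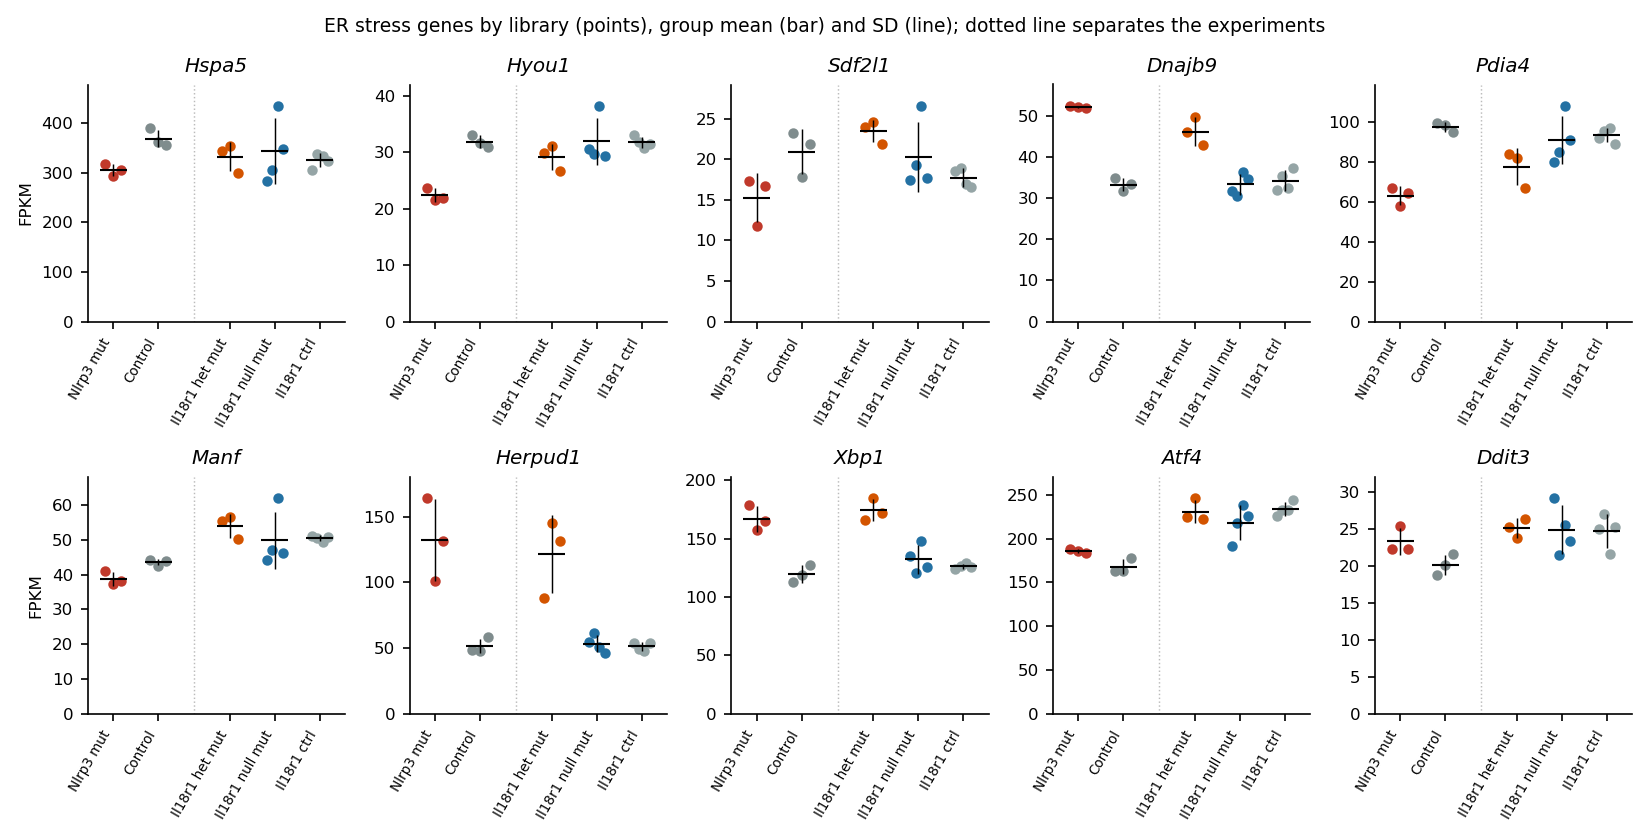
FPKM (y axis, from 0) of the 10 genes in each of the 17 libraries (points), with the group mean (bar) and SD (line), the mutant groups left of their controls and the 2 experiments separated by a dotted line. Herpud1, Dnajb9 and Xbp1 stood higher in the Nlrp3 mutant and het mutant libraries than in the other 3 groups, and null mutant library 3 stood above the rest of its group for Hspa5, Hyou1, Sdf2l1, Pdia4 and Manf.

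Among the luminal chaperones, Hspa5 (BiP), the main HSP70 chaperone of the ER and the protein that holds the 3 sensors inactive, was at 318, 292 and 305 FPKM in the 3 Nlrp3 mutant libraries and at 389, 361 and 355 FPKM in the 3 Control libraries. Every mutant library lay below every control, and the log2 fold change was -0.27 ± 0.0631 (SE), limma adjusted p = 0.00747. Hyou1, an HSP110-type chaperone that helps BiP exchange its nucleotide, was at 23.7, 21.5 and 22.0 FPKM in Nlrp3 mutants and at 33.1, 31.7 and 30.9 FPKM in Control lungs. The groups did not overlap and the log2 fold change was -0.49 ± 0.0575 (SE), limma adjusted p = 0.000264. Pdia4 (ERp72), a disulfide isomerase that forms and rearranges disulfide bonds, was at 66.7, 57.6 and 64.4 FPKM in Nlrp3 mutants and at 99.4, 98.3 and 94.8 FPKM in Control lungs. It had the largest fall of the set, with a log2 fold change of -0.63 ± 0.0637 (SE), limma adjusted p = 0.000134. The calls of Hspa5, Hyou1 and Pdia4 held in all 13 alternatives run for this comparison.

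Manf, a small ER protein that is secreted under stress and protects cells, was lower by a smaller step. It had 41.2, 37.4 and 38.1 FPKM in Nlrp3 mutants and 44.3, 42.6 and 43.9 FPKM in Control lungs, with a log2 fold change of -0.16 ± 0.0537 (SE), limma adjusted p = 0.0335. This call ended when Control 1, 2 or 3, or Nlrp3 mutant 2 or 3, was left out, with limma adjusted p-values for Manf of 0.0938, 0.0656, 0.0737, 0.0842 and 0.116. The annotated span of Manf also holds Rbm15b on the same strand and Dcaf1 on the other, so its level may include reads of those genes.

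Dnajb9 (ERdj4), a J-domain cochaperone that brings BiP to misfolded proteins and restrains IRE1, went the other way from the chaperones it serves. It was at 52.4, 52.2 and 51.9 FPKM in Nlrp3 mutants and at 34.8, 31.7 and 33.4 FPKM in Control lungs. The 3 mutant values lay close together (coefficient of variation 0.483%), all above the controls, and the log2 fold change was 0.63 ± 0.0508 (SE), limma adjusted p = 4.79e-05. Sdf2l1, an ER protein that works with J-domain cochaperones to keep BiP clients from aggregating, was at 17.3, 11.8 and 16.7 FPKM in Nlrp3 mutants and at 23.2, 17.8 and 21.8 FPKM in Control lungs. All 3 mutant values lay below the lowest control, by a narrow margin, and the log2 fold change was -0.44 ± 0.150 (SE), given without a test.

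Herpud1, a membrane protein that assembles the HRD1 complex of ER-associated degradation, showed the widest difference of the set. Its level was 164, 101 and 131 FPKM in Nlrp3 mutants and 48.6, 48.0 and 58.1 FPKM in Control lungs. Even the lowest mutant library exceeded the highest control, though the mutants varied among themselves (coefficient of variation 23.7%), and the log2 fold change was 1.32 ± 0.162 (SE), limma adjusted p = 0.000329. An annotated antisense gene, Gm15890, overlaps Herpud1, and the sources used here do not state whether strand was used in counting.

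Among the transcription factors, Xbp1 was at 179, 157 and 165 FPKM in Nlrp3 mutants and at 113, 119 and 128 FPKM in Control lungs. The groups did not overlap and the log2 fold change was 0.48 ± 0.0693 (SE), limma adjusted p = 0.000778. FPKM per gene does not separate spliced from unspliced Xbp1. The calls of Herpud1, Dnajb9 and Xbp1 also held in all 13 alternatives. Atf4 was at 188, 186 and 184 FPKM in Nlrp3 mutants and at 162, 163 and 178 FPKM in Control lungs. Ddit3, its target that promotes cell death under lasting stress, was at 22.3, 25.4 and 22.2 FPKM in mutants and at 18.7, 20.1 and 21.5 FPKM in controls. For both genes each mutant library lay above each control, but the log2 fold changes missed the threshold. They were 0.15 ± 0.0551 (SE), limma adjusted p = 0.054 for Atf4 and 0.20 ± 0.0753 (SE), limma adjusted p = 0.0503 for Ddit3. Without Control 3, which was the highest control for both, they passed, with limma adjusted p = 0.0168 for Atf4 and 0.0357 for Ddit3. Both also passed in the robust fit with array weights (0.00626 for Atf4 and 0.0199 for Ddit3), and Ddit3 at a mean of at least 5 FPKM (0.0495). Mars overlaps Ddit3 on the opposite strand in the annotation. Since the use of strand in counting is not stated, the level of Ddit3 may include reads of Mars.

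In het mutant lungs of the second experiment, Herpud1, Dnajb9 and Xbp1 were again higher than in controls, at ratios of 2.37, 1.35 and 1.38, and Pdia4 was lower at 0.831. Hspa5, Hyou1, Manf, Atf4 and Ddit3 did not pass the test, at ratios of 1.02, 0.918, 1.07, 0.987 and 1.02. Of the 9 genes other than Sdf2l1, 3 were called higher and 1 lower, where 56.2% of the 13724 genes tested were called, 27.3% higher and 28.9% lower. Groups did not overlap for 3 genes above and 1 below, as for 27.4% of all genes above and 29.1% below.

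Herpud1 was at 88.4, 145 and 131 FPKM in the 3 het mutant libraries and at 54.2, 49.0, 47.7 and 54.2 FPKM in the 4 controls. All het mutants lay well above the controls, het mutant 1 lowest among them, and the log2 fold change was 1.20 ± 0.143 (SE), limma adjusted p = 2.44e-05. Dnajb9 was at 46.0, 49.8 and 42.8 FPKM in het mutants and at 32.1, 35.3, 32.4 and 37.3 FPKM in controls. The groups did not overlap, and the log2 fold change was 0.42 ± 0.0753 (SE), limma adjusted p = 0.000534. Xbp1 was at 166, 185 and 172 FPKM in het mutants and at 124, 126, 129 and 126 FPKM in controls. The controls were tight and all below the het mutants, with a log2 fold change of 0.46 ± 0.0659 (SE), limma adjusted p = 0.000101. These 3 calls held in all 19 alternatives run for this comparison.

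Pdia4 was at 83.9, 81.6 and 66.8 FPKM in het mutants and at 92.1, 95.2, 96.8 and 88.8 FPKM in controls. Het mutant 3 lay furthest down, and the log2 fold change was -0.27 ± 0.0991 (SE), limma adjusted p = 0.0348. Without het mutant 3 it was -0.17, limma adjusted p = 0.166, and the call of Pdia4 also ended without Il18r1 control 1, 2 or 3, at limma adjusted p-values of 0.0566, 0.0712 and 0.0747. With no filter on low values it was 0.0544. Sdf2l1 was at 23.9, 24.6 and 21.9 FPKM in het mutants and at 18.5, 18.9, 17.0 and 16.6 FPKM in controls. All 3 het mutants lay above all 4 controls, the reverse of its order in the first experiment, with a log2 fold change of 0.39 ± 0.119 (SE), again without a test.

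The members that did not pass overlapped between het mutants and controls. Hspa5 ranged from 299 to 354 FPKM in het mutants and from 305 to 337 FPKM in controls, with a log2 fold change of 0.029 ± 0.120 (SE), limma adjusted p = 0.855. Hyou1 ranged from 26.6 to 31.1 FPKM in het mutants and from 30.8 to 33.1 FPKM in controls, with a log2 fold change of -0.12 ± 0.0851 (SE), limma adjusted p = 0.244. The 2 chaperones thus showed, in het mutants, intervals that included 0, of -0.23 to 0.29 for Hspa5 and -0.31 to 0.064 for Hyou1 (95% interval of the log2 fold change). Manf ranged from 50.2 to 56.7 FPKM in het mutants and from 49.4 to 51.2 FPKM in controls, with a log2 fold change of 0.095 ± 0.0951 (SE), limma adjusted p = 0.418. The log2 fold changes of Atf4 and Ddit3 were -0.02 and 0.027, with limma adjusted p = 0.825 for Atf4 and 0.83 for Ddit3. At equal total FPKM in every library, Hyou1 and Atf4 were called lower in het mutants, with log2 fold changes of -0.28 and -0.18 (limma adjusted p = 0.00649 for Hyou1 and 0.0376 for Atf4).

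**Figure D2:**
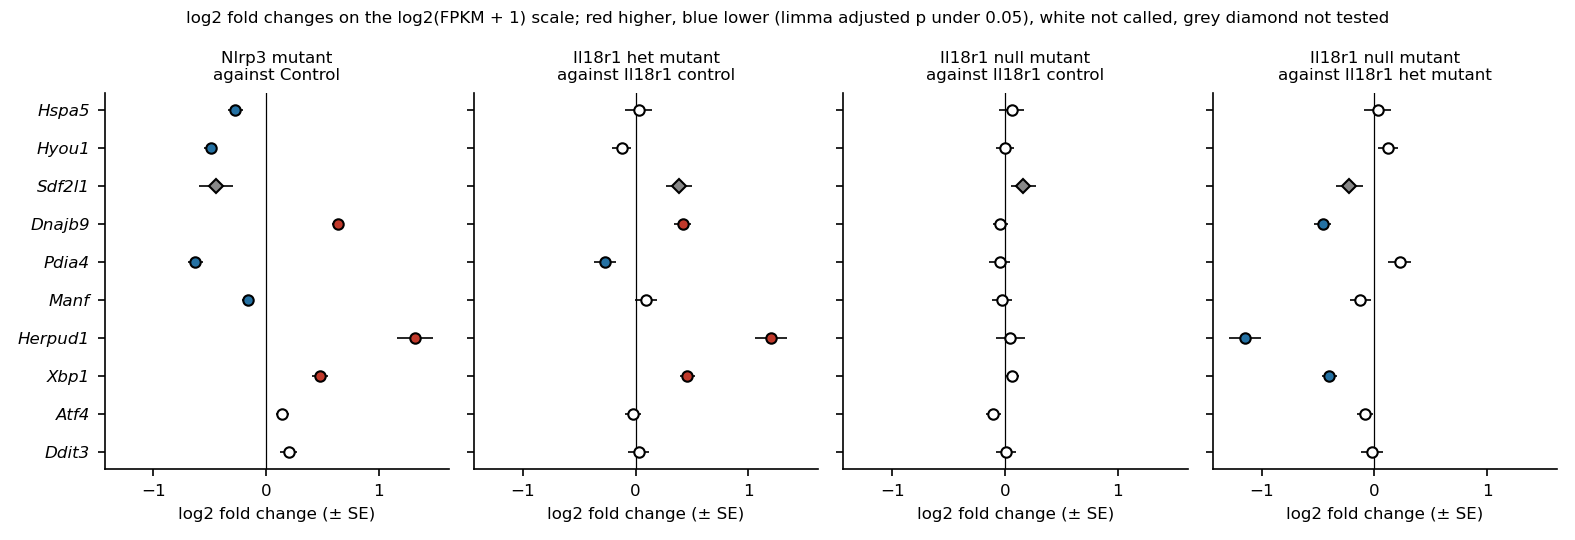
log2 fold change on the log2(FPKM + 1) scale (x axis, with SE) of the 10 genes (rows) in the 4 comparisons, from limma. Filled red points were called higher and filled blue points lower at an adjusted p under 0.05, white points were not called, and grey diamonds (Sdf2l1) were not tested; Herpud1, at 1.32 in Nlrp3 mutants and 1.20 in het mutants, lay furthest to the right, and no gene was called between null mutants and Il18r1 controls.

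In null mutant lungs, none of the 9 genes other than Sdf2l1 was called against Il18r1 controls by limma, none had an unadjusted p under 0.05, and none was called in the authors' deposited table, where 1.97% of the genes tested by limma were called, 1.87% higher and 0.102% lower. The groups overlapped for all 9, while 5.06% of all genes lay above without overlap and 3.40% below. Herpud1 was at 54.3, 61.4, 51.0 and 46.5 FPKM in the 4 null mutant libraries, a range that includes the 4 controls given above, and its log2 fold change was 0.049 with a 95% interval of -0.24 to 0.34. Dnajb9 was at 31.8, 30.5, 36.3 and 34.6 FPKM and Xbp1 at 135, 120.2, 148 and 126 FPKM in null mutants. Their log2 fold changes against controls were -0.04 (95% interval -0.19 to 0.11) for Dnajb9 and 0.061 (95% interval -0.072 to 0.19) for Xbp1. The upper ends of the 3 intervals lie below the log2 fold changes that the same genes had in het mutants against the same controls. In the null mutants without Xist alone, numbers 1 and 3, against the controls, which also lacked Xist, the log2 fold changes were 0.038 for Herpud1, -0.0079 for Dnajb9 and 0.16 for Xbp1, and none of the 9 genes was called.

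Set directly against het mutants, null mutants had lower Herpud1, Dnajb9 and Xbp1, and no member was called higher, where 53.3% of genes tested were called, 26.8% higher and 26.5% lower. The log2 fold changes were -1.15 ± 0.143 (SE), limma adjusted p = 4.06e-05 for Herpud1, -0.46 ± 0.0753 (SE), limma adjusted p = 0.000314 for Dnajb9 and -0.40 ± 0.0659 (SE), limma adjusted p = 0.000331 for Xbp1. For these 3 every null mutant library lay below every het mutant library, as for 26.0% of all genes, against 26.2% above, and the calls held in all 20 alternatives run. In the null mutants with Xist alone, numbers 2 and 4, against the het mutants, which all had Xist, the log2 fold changes were -1.14 for Herpud1, -0.49 for Dnajb9 and -0.50 for Xbp1, with limma adjusted p = 0.000885, 0.00161 and 0.000138. Manf was called lower as well in this split, which brought the members called to 4. Neutrophil, macrophage, alveolar type 2 and airway secretory markers were lower in null than in het mutants as well, at 7 of 8, 8 of 8, 9 of 10 and 5 of 8 markers called lower, and their part in these differences was not tested.

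Of Hspa5, Hyou1, Pdia4, Manf and Dnajb9, only Dnajb9 was called between null and het mutants with all libraries kept and the scaling as deposited. At equal total FPKM, Hyou1 and Pdia4 were called higher in null mutants, with log2 fold changes of 0.32 and 0.43 (limma adjusted p = 0.00273 for Hyou1 and 0.00169 for Pdia4). Pdia4 was at 80.0, 84.6, 108 and 90.6 FPKM in null mutants, overlapping the het mutants, with a log2 fold change of 0.22 ± 0.0991 (SE), limma adjusted p = 0.0758. This passed without het mutant 1 (limma adjusted p = 0.0479) or without null mutant 1 (0.0335). Hspa5 was at 283, 305, 434 and 348 FPKM, Hyou1 at 30.6, 29.7, 38.2 and 29.4 FPKM and Manf at 44.2, 47.1, 62.0 and 46.4 FPKM in null mutants. In all 3 genes null mutant 3 stood above the other null mutants, and limma adjusted p against het mutants was 0.852 for Hspa5, 0.252 for Hyou1 and 0.291 for Manf. Without null mutant 3, Manf was called lower than in het mutants, with a log2 fold change of -0.23 and limma adjusted p = 0.00462. Sdf2l1 was at 17.5, 19.3, 26.6 and 17.6 FPKM in null mutants, a spread that overlapped both the het mutants and the controls. Its log2 fold change was -0.22 ± 0.119 (SE) against het mutants and 0.16 ± 0.110 (SE) against controls. Atf4 ranged from 192 to 238 FPKM and Ddit3 from 21.5 to 29.1 FPKM in null mutants, and neither was called against either group.

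Whether mutants differed from their own controls by unlike amounts in the 2 experiments was tested as the difference of the 2 log2 fold changes. Each was taken within its own table, in a fit of all 17 libraries. Every Nlrp3 mutant and het mutant had Xist and no control did, so these changes hold genotype and sex together. Experiment and Il18r1 genotype also cannot be told apart in the difference between Nlrp3 mutants and het mutants. Between Nlrp3 mutants and het mutants, none of the 9 genes other than Sdf2l1 was called by limma and 3 had an unadjusted p under 0.05. Of the 13443 genes tested, 6.73% were called, 2.98% higher and 3.76% lower, and 24.5% had an unadjusted p under 0.05. Herpud1 and Xbp1 had differences of 0.12 ± 0.234 (SE), limma adjusted p = 0.806 and 0.015 ± 0.0980 (SE), limma adjusted p = 0.948. The 4 chaperone and chaperone-like genes that fell in Nlrp3 mutants had differences of -0.37 for Hyou1, -0.36 for Pdia4, -0.30 for Hspa5 and -0.26 for Manf. Their limma adjusted p was 0.061, 0.113, 0.25 and 0.214. A negative sign was favoured by the choice of these 4, since their fall is 1 term of the difference. Across the alternatives run, Dnajb9, Atf4 and Ddit3 had positive differences, of 0.16 to 0.27, 0.14 to 0.21 and 0.11 to 0.24, and none of these passed. Hyou1 passed without Nlrp3 mutant 1 (0.0447), het mutant 3 (0.0335) or null mutant 3 (0.0211), Pdia4 without het mutant 3 (0.0368), and Manf without null mutant 3 (0.047). Sdf2l1, whose opposite directions chose the set, had a difference of -0.83 ± 0.203 (SE), given as a description.

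**Figure D3:**
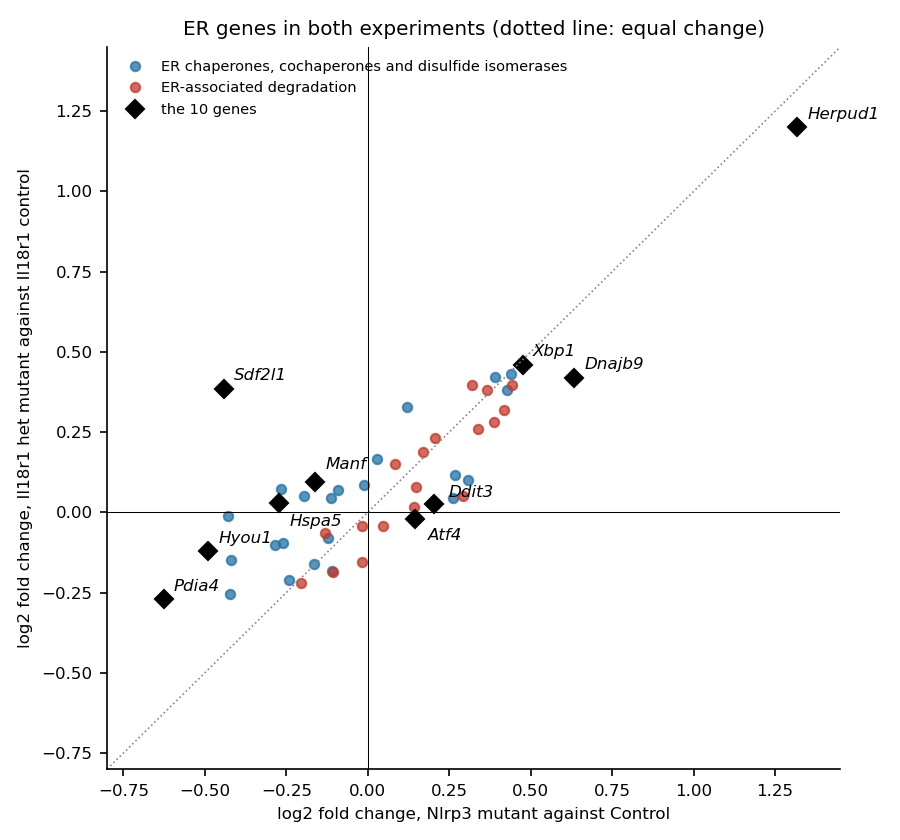
log2 fold change in Nlrp3 mutants against Control (x axis) and in het mutants against Il18r1 control (y axis) of the 10 genes (black diamonds) and of the tested genes of the chaperone list (blue) and the ER-associated degradation list (red); the comparisons share no libraries. Herpud1, Dnajb9 and Xbp1 lie in the upper right, Pdia4 and Hyou1 in the lower left, and Sdf2l1, at -0.44 and 0.39, in the upper left.

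Between Nlrp3 mutants and null mutants, 6 of the 9 genes had different log2 fold changes, 4 higher and 2 lower, where 43.7% of genes were called, 21.7% higher and 22.0% lower. Xist was above 1 FPKM in each Nlrp3 mutant but only in numbers 2 and 4 of the null mutants. The 2 effects therefore also differ in the sex of the mutants, and no split by Xist was run for this difference. The differences were 1.27 ± 0.226 (SE), limma adjusted p = 0.000306 for Herpud1 and 0.67 ± 0.0952 (SE), limma adjusted p = 4e-05 for Dnajb9. For Xbp1 it was 0.41 ± 0.0946 (SE), limma adjusted p = 0.00223, and for Atf4 0.25 ± 0.0907 (SE), limma adjusted p = 0.0361. The lower ones were -0.58 ± 0.129 (SE), limma adjusted p = 0.00177 for Pdia4 and -0.49 ± 0.109 (SE), limma adjusted p = 0.00185 for Hyou1. Those of Herpud1, Dnajb9, Xbp1, Pdia4 and Hyou1 held in all 24 alternatives run. The call of Atf4 ended in 11 of them, 10 of which left out 1 library (Control 1 or 2, Nlrp3 mutant 1, 2 or 3, Il18r1 control 2, 3 or 4, or null mutant 1 or 2), with limma adjusted p-values between 0.0523 and 0.0861. Hspa5 (limma adjusted p = 0.089), Manf (0.393) and Ddit3 (0.236) were not called, and Hspa5 passed without null mutant 1 (0.0237). At equal total FPKM, Hspa5 and Manf were called lower, with differences of -0.54 and -0.34 (limma adjusted p = 0.0058 for Hspa5 and 0.0163 for Manf).

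For the second experiment the authors' deposited tables of comparisons could be set beside these values. In the authors' deposited table of het mutants against controls, the same 4 genes were called as here, and Manf in addition, with an adjusted p of 0.0310. In the authors' deposited tables of null mutants against controls and against het mutants, the calls were the same for 9 of 9 genes. No log2 fold change in the authors' deposited tables differed from the one here by more than 0.0666.

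The genes also varied among libraries of 1 group, which the choice of the set did not use. Over deviations of log2(FPKM + 1) from the group mean in 17 libraries, Sdf2l1 passed the test with Manf, Hyou1, Pdia4 and Hspa5 and with none of the 5 other genes, though the differences between these correlations were not tested. Pearson's r with Sdf2l1 was 0.796 for Manf (adjusted permutation p = 0.00270, from 100000 resamples within groups, two-sided), 0.755 for Hyou1 (adjusted permutation p = 0.0225), 0.726 for Pdia4 (adjusted permutation p = 0.0303) and 0.680 for Hspa5 (adjusted permutation p = 0.0303), adjusted over 9 genes. Spearman's rho was 0.765 for Manf, 0.674 for Hyou1, 0.662 for Pdia4 and 0.654 for Hspa5, with adjusted permutation p = 0.00819, 0.0256, 0.0256 and 0.0256. For Xbp1, Atf4, Dnajb9, Herpud1 and Ddit3, r was 0.541, 0.410, 0.399, 0.323 and -0.200, and none passed. Of 13441 other genes, 0.0595% had an r with Sdf2l1 at or above that of Manf, and 0.848% at or above that of Hspa5.

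These correlations rest on few libraries. Without null mutant 3 and Nlrp3 mutant 2, the libraries farthest from the median of Sdf2l1, r fell to 0.298 for Hspa5, 0.455 for Hyou1 and 0.316 for Pdia4, none of which passed. Manf kept r = 0.588 (adjusted permutation p = 0.0374) with a rho of 0.571 (adjusted permutation p = 0.140). Without null mutant 3 alone, none of the 9 passed, and Manf had r = 0.630 with an adjusted permutation p of 0.155. With each of the 17 libraries left out in turn, Hspa5 passed 11 times, Pdia4 13, Hyou1 14 and Manf 16. Within the first experiment alone r was 0.756 for Manf, 0.597 for Hyou1, 0.769 for Pdia4 and 0.722 for Hspa5, and within the second alone 0.945, 0.907, 0.792 and 0.797 for the same genes in the same order, and none of these passed. At equal total FPKM in every library, r was 0.712 for Manf, 0.651 for Hyou1, 0.632 for Pdia4 and 0.604 for Hspa5, and none passed either (adjusted permutation p = 0.0967 for Manf).

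**Figure D4:**
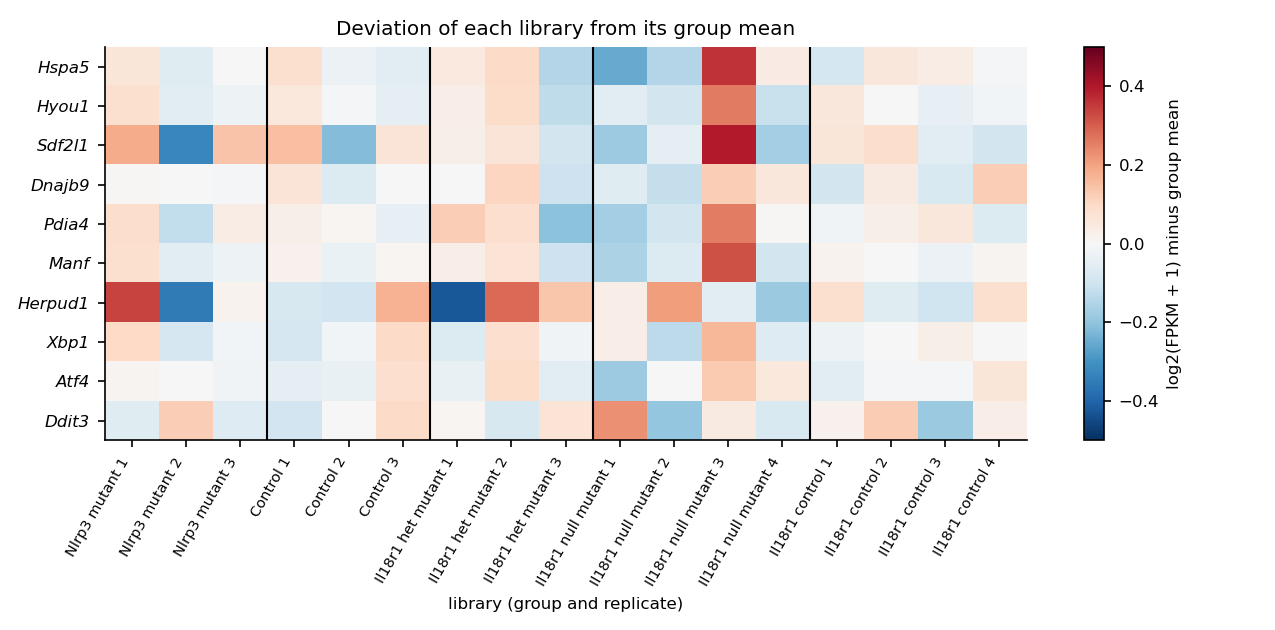
Deviation of each library (columns, by group and replicate) from its group mean in log2(FPKM + 1) (colour) for the 10 genes (rows). Null mutant 3 is red for Hspa5, Hyou1, Sdf2l1, Pdia4 and Manf, while Herpud1 has its largest deviations in Nlrp3 mutants 1 and 2 and het mutants 1 and 2.

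Null mutant 3 was the highest of its group for 8 of the 10 genes. It held Sdf2l1 at 26.6 FPKM, 46.4% above the mean of the 3 other null mutants, Hspa5 at 434 FPKM (39.0% above), Manf at 62.0 FPKM (35.0% above), Hyou1 at 38.2 FPKM (27.8% above) and Pdia4 at 108 FPKM (26.7% above). For Herpud1 the same library stood 5.72% below the mean of the others, and for Ddit3 3.46% above it. Nlrp3 mutant 1 was the highest of its group for 9 genes and het mutant 2 for 8, with mean deviations of 0.089 each on the log2 scale, against 0.20 for null mutant 3. The relative depth of null mutant 3 was 0.920, against 1.03 to 1.15 in the 3 other null mutants. Total FPKM was the highest of the group in null mutant 3, Nlrp3 mutant 1 and het mutant 2 alike. The share of all genes that were highest in these libraries is not given. The part of depth and total FPKM in these values was not tested.

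Ranked by likeness to Sdf2l1, as Pearson's r over 17 libraries of log2(FPKM + 1) minus the control mean of the same table, the 5 nearest of 13442 genes were Nbas, Myo19, Exosc10, Dhx29 and Zscan22, with r of 0.905, 0.892, 0.891, 0.874 and 0.864. Of the set, Manf ranked 23rd with r = 0.819, Hspa5 56th with 0.775, Hyou1 138th with 0.710 and Pdia4 472nd with 0.593. Dnajb9, Herpud1, Xbp1, Atf4 and Ddit3 had r of -0.260, -0.111, -0.023, -0.357 and -0.457. The values of Sdf2l1 in this ranking include the group shifts by which the set was chosen. All points also share 2 sets of control libraries, so these values are a description and carry no p.

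Beyond the 10 genes, the rest of the response was followed in lists that hold none of them. Of 22 tested ER chaperones, cochaperones and disulfide isomerases, 5 were called higher and 9 lower in Nlrp3 mutants against Control lungs (median log2 fold change -0.11, against 0.0023 over all genes), where 28.0% of all genes were higher and 27.6% lower. In het mutants against controls 5 were higher and 2 lower (median 0.048, against -0.017 over all genes), where 27.3% of all genes were higher and 28.9% lower. In null against het mutants 2 were higher and 5 lower, where 26.8% of all genes were higher and 26.5% lower. Dnajc3 (p58IPK), a BiP cochaperone that inhibits PERK, had log2 fold changes of 0.43 ± 0.0549 (SE), limma adjusted p = 0.000415 in Nlrp3 mutants and 0.38 ± 0.0685 (SE), limma adjusted p = 0.000538 in het mutants. Ero1l, the oxidase that recharges disulfide isomerases, had 0.39 ± 0.0551 (SE), limma adjusted p = 0.000652 in Nlrp3 mutants and 0.42 ± 0.0807 (SE), limma adjusted p = 0.000835 in het mutants, and Txndc11, a thioredoxin-domain ER protein, had 0.44 ± 0.0723 (SE), limma adjusted p = 0.0014 and 0.43 ± 0.0867 (SE), limma adjusted p = 0.00118. These 3 were called higher in both experiments, and Cnpy2 and Pdia5 lower in both. The share of all genes called the same way in both experiments is not given, for this list or those below. Without het mutant 1 or het mutant 2, the chaperones called higher in het mutants numbered 3.

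Of 18 tested genes of ER-associated degradation, 10 were called higher and 1 lower in Nlrp3 mutants (median 0.16), and 9 higher and 3 lower in het mutants (median 0.11), where the 3 became 1 without Il18r1 control 4. The shares over all genes were 28.0% higher and 27.6% lower in Nlrp3 mutants, and 27.3% higher and 28.9% lower in het mutants. The 8 called higher in both, which make 8 of the 10 and 8 of the 9, were Aup1, Derl1, Edem2, Erlec1, Os9, Sel1l, Ubxn4 and Vimp. Without the share of all genes called higher in both, this overlap has no background to be read against. Derl1, a membrane protein of the retrotranslocation channel, averaged 58.9 ± 1.27 FPKM in Nlrp3 mutants and 44.8 ± 1.74 FPKM in Control lungs (SD, n = 3 each), with a log2 fold change of 0.39 ± 0.0499 (SE), limma adjusted p = 0.000421. In het mutants the log2 fold change was 0.28 ± 0.0403 (SE), limma adjusted p = 0.000101. Os9, a lectin that delivers misfolded glycoproteins to the HRD1 complex, had a log2 fold change of 0.40 ± 0.0563 (SE), limma adjusted p = 9.54e-05 in het mutants. Vimp and Aup1, partners of the retrotranslocation machinery, had 0.44 and 0.37 in Nlrp3 mutants, with limma adjusted p = 0.00143 for Vimp and 0.000543 for Aup1. Syvn1 (HRD1), the ubiquitin ligase of this complex, was called lower in both experiments. In null mutants against het mutants, 8 genes of this list were called lower and 1 higher, where 26.5% of all genes were lower and 26.8% higher. Among the 8 were Os9 at -0.43 ± 0.0563 (SE), limma adjusted p = 5.52e-05, Derl1 at -0.28 ± 0.0403 (SE), limma adjusted p = 0.000134 and Ubxn4 at -0.22 ± 0.0429 (SE), limma adjusted p = 0.000984.

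These list counts depend on how libraries are scaled. When every library was set to the same total FPKM, the median of all genes moved to -0.15 in Nlrp3 mutants, -0.16 in het mutants and 0.19 in null against het mutants. The degradation list then held 5 higher and 4 lower genes in Nlrp3 mutants (median -0.0013), 5 higher and 7 lower in het mutants (median -0.041), and 8 higher and 2 lower in null against het mutants (median 0.12). Its majority thus turned round in the last 2, while its median stayed above that of all genes in both mutants and below it in null against het mutants. The chaperone list held 3 higher and 14 lower in Nlrp3 mutants and 3 higher and 8 lower in het mutants. Over all genes, the split of calls moved from 3788 higher and 3740 lower to 2391 and 5613 in Nlrp3 mutants, and from 3752 and 3964 to 2484 and 6482 in het mutants. It moved from 3675 and 3636 to 6961 and 2037 in null against het mutants. Herpud1, Dnajb9 and Xbp1 kept their calls under this scaling in all 3 comparisons.

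**Figure D5:**
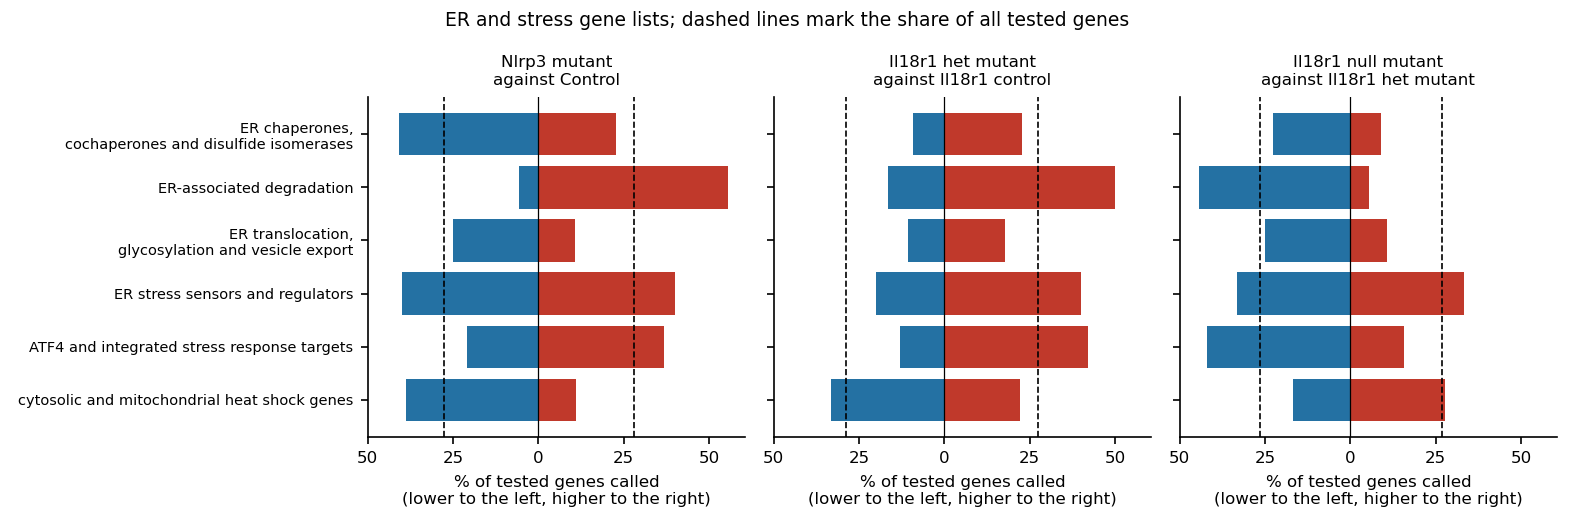
Share of the tested genes of 6 lists (rows) called higher (red, right) or lower (blue, left) by limma in 3 comparisons, with the scaling as deposited; dashed lines mark the shares over all genes tested. In the degradation list 10 of 18 genes were higher in Nlrp3 mutants and 9 of 18 in het mutants, and 8 of 18 were lower in null against het mutants; at equal total FPKM these counts are 5, 5 and 2.

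Of 15 tested sensors and regulators of the response, 6 were called higher and 6 lower in Nlrp3 mutants, and 6 higher and 3 lower in het mutants; at equal total FPKM these were 4 and 8, and 3 and 8. Over all genes, as deposited, 28.0% were higher and 27.6% lower in Nlrp3 mutants, and 27.3% higher and 28.9% lower in het mutants. Without Nlrp3 mutant 3, those lower in Nlrp3 mutants numbered 3. The 6 that were higher in both were Atf6, Creb3, Eif2ak3, Ern1, Ppp1r15b and Tmbim6, which include the genes of all 3 sensors, since Ern1 encodes IRE1 and Eif2ak3 encodes PERK. Here too, no share of all genes called higher in both is given. Atf6 averaged 22.0 ± 0.953 FPKM in Nlrp3 mutants and 15.8 ± 0.523 FPKM in Control lungs (SD, n = 3 each). Its log2 fold changes were 0.45 ± 0.0568 (SE), limma adjusted p = 0.000361 in Nlrp3 mutants, 0.39 ± 0.0449 (SE), limma adjusted p = 1.94e-05 in het mutants and -0.36 ± 0.0449 (SE), limma adjusted p = 4.69e-05 in null against het mutants. Tmbim6, an ER membrane protein that restrains IRE1 and cell death, had log2 fold changes of 0.46, 0.45 and -0.52 in the same comparisons, with limma adjusted p = 0.000416, 3.03e-05 and 1.39e-05.

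Creb3l1 (OASIS), a membrane-bound transcription factor of collagen-secreting cells, moved against them. It averaged 4.97 ± 0.555 FPKM in Nlrp3 mutants and 13.4 ± 1.44 FPKM in Control lungs (SD, n = 3 each), with a log2 fold change of -1.27 ± 0.101 (SE), limma adjusted p = 4.7e-05. It was also lower in het mutants (-0.92 ± 0.0862 (SE), limma adjusted p = 3.57e-06) and higher in null than in het mutants (0.83 ± 0.0862 (SE), limma adjusted p = 1.13e-05). Kdelr3, a receptor that returns escaped chaperones to the ER, had log2 fold changes of -0.84 ± 0.113 (SE), limma adjusted p = 0.00054 in Nlrp3 mutants, -0.75 ± 0.0935 (SE), limma adjusted p = 3.42e-05 in het mutants and 0.60 ± 0.0935 (SE), limma adjusted p = 0.000221 in null against het mutants. The markers of matrix-making fibroblasts moved the same way, with 8 of 10 called lower in each mutant and 8 of 10 higher in null against het mutants, at a summed level of 3536 to 3713 FPKM in Nlrp3 mutants and 3686 to 4154 FPKM in Control lungs. Eln, which is part of this sum, went against those 8, at 2713 ± 81.7 FPKM in Nlrp3 mutants and 1852 ± 187 FPKM in Control lungs (SD, n = 3 each), with a log2 fold change of 0.56 ± 0.108 (SE), limma adjusted p = 0.00323. Without Eln the sum over the other 9 was 817 to 995 FPKM in Nlrp3 mutants and 2049 to 2182 FPKM in Control lungs. Their part in the values of Creb3l1 and Kdelr3 was not tested. Of the 28 tested genes of translocation, glycosylation and vesicle export, which hold Kdelr3, 3 were called higher and 7 lower in Nlrp3 mutants, and 5 higher and 3 lower in het mutants; the 7 became 4 without Control 2 and 11 without Nlrp3 mutant 1, and the 3 lower in het mutants became 1 without Il18r1 control 2 or het mutant 3 and 5 without het mutant 1. Higher and lower calls over all genes made up 28.0% and 27.6% in Nlrp3 mutants, and 27.3% and 28.9% in het mutants. In null against het mutants, 26.8% of all genes were called higher. At equal total FPKM, 0 were higher and 21 lower in Nlrp3 mutants, and 1 higher and 12 lower in het mutants.

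Of 38 tested targets of ATF4 and the integrated stress response, 14 were called higher and 8 lower in Nlrp3 mutants (median 0.032), and 16 higher and 5 lower in het mutants (median 0.13), which at equal total FPKM became 8 and 12 of 38 in Nlrp3 mutants and 14 and 14 of 39 in het mutants. Without Nlrp3 mutant 3 the 14 became 9. Of all genes, 28.0% were higher and 27.6% lower in Nlrp3 mutants, and 27.3% higher and 28.9% lower in het mutants. Nupr1, a small chromatin-associated stress protein, averaged 289 ± 10.4 FPKM in Nlrp3 mutants and 92.8 ± 22.3 FPKM in Control lungs (SD, n = 3 each), a ratio of 3.12, with a log2 fold change of 1.65 ± 0.143 (SE), limma adjusted p = 6.51e-05. In the second experiment Nupr1 averaged 250.1 ± 13.8 FPKM in het mutants (SD, n = 3) and 94.9 ± 3.49 FPKM in null mutants (SD, n = 4), against 81.9 ± 6.57 FPKM in controls (SD, n = 4). Its log2 fold changes were 1.60 ± 0.0649 (SE), limma adjusted p = 7.87e-09 in het mutants against controls and -1.39 ± 0.0649 (SE), limma adjusted p = 5.85e-08 in null against het mutants.

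Other targets of ATF4 went in both directions. Asns, asparagine synthetase, was higher in het mutants (0.74 ± 0.0886 (SE), limma adjusted p = 2.66e-05) and lower in null than in het mutants (-0.83 ± 0.0886 (SE), limma adjusted p = 1.37e-05). Cebpb, a transcription factor that partners ATF4, was higher in het mutants (0.63 ± 0.0681 (SE), limma adjusted p = 1.14e-05) and lower in null than in het mutants (-0.44 ± 0.0681 (SE), limma adjusted p = 0.000205). In Nlrp3 mutants Asns was called higher as well, and Cebpb was not. The list also held 1 gene called in opposite directions in the 2 experiments. Mthfd2, a mitochondrial enzyme of one-carbon metabolism, and Psat1, of serine synthesis, were lower in Nlrp3 mutants. Their log2 fold changes were -1.31 ± 0.105 (SE), limma adjusted p = 4.86e-05 for Mthfd2 and -0.57 ± 0.0522 (SE), limma adjusted p = 8.24e-05 for Psat1. Between Nlrp3 mutants and het mutants, 6 of the 38 genes had different log2 fold changes, all more negative in Nlrp3 mutants, where 3.76% of all genes were: Mthfd2, Slc7a1, Aars, Chac1, Psat1 and Cars, with Mthfd2 furthest apart (-1.01 ± 0.143 (SE), limma adjusted p = 0.00347). That count fell to 3 without any 1 Control library or without Nlrp3 mutant 2, and to 2 without Nlrp3 mutant 3. Summed over 6 proliferation markers, FPKM was 20.6 to 28.7 in Nlrp3 mutants and 115 to 136 in Control lungs. It was 30.7 to 58.7 in het mutants, 105 to 142 in null mutants and 97.0 to 116 in Il18r1 controls. The part of dividing cells in the values of Mthfd2 was not tested. In null mutants against Il18r1 controls, none of the 139 tested genes of these lists and the list of heat shock genes outside the ER was called by limma, and 5 had an unadjusted p under 0.05, where 1.97% of all genes were called and 10.3% had an unadjusted p under 0.05. These 5 were Nupr1, Cebpb, Edem1, Mbtps1 and Cryab, with Nupr1 the lowest in p, at a log2 fold change of 0.21 ± 0.0601 (SE), limma adjusted p = 0.133.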

How the data were processed

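Whole-lung RNA was extracted with RNeasy kits and sequenced as paired-end stranded mRNA libraries, per the labels' protocols. STAR and GRCm38 (mm10) are named in the submitters' processing notes; the quantifier and the use of strand were not stated there. The 2 deposited tables hold 1 value per gene and library, read as FPKM from the values and column names, since no header names the unit. Lines whose symbol had become a date (27 per table) were left out, and 24327 genes were kept. For the second experiment the authors deposited log2 fold changes with p-values, per the file headers.

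Each table was put on log2(FPKM + 1) and filtered, keeping genes that reached 1 FPKM in 3 or more libraries. Group differences were fitted with limma 3.58.1 with a trended prior (R 4.3.3), all 6 libraries of the first table and all 11 of the second each sharing 1 estimate of the spread, with Benjamini-Hochberg adjustment over all genes tested and a threshold of 0.05. Differences between the experiments came from a joint fit of 17 libraries; because the tables were normalized separately, only effects within a table were compared. Within-group correlations used Python 3.11.15 and numpy 2.4.6. The fit was checked on simulated data. The named genes were drawn from the 10 members, the 3 genes with the smallest p of each list in each comparison and the 5 genes most like Sdf2l1. Genes of counts of 5 or fewer were named for some counts and not for others. The members and lists were chosen with earlier results of these data known. Alternatives were other scalings, pseudocounts and filters, a robust fit, a replicate block, null libraries split by Xist, and each library left out.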

Additional observations from a re-analysis of the deposited data

Results flagged for a closer look

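Hyou1 in null mutants was singled out because 1 library stood apart. Null mutant 3 held 38.2 FPKM and the 3 others 29.4 to 30.6 FPKM. On the log2(FPKM + 1) scale, the gap to the nearest library made up 0.848 of the group's range, above Dixon's critical value for 4 samples. Of 20 such groups of 4 libraries looked at, this was the 1 that passed, and chance flags about 1 in 20.

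Sdf2l1 was lower in all 3 Nlrp3 mutants than in Control lungs and higher in all 3 het mutants than in Il18r1 controls. The difference of the 2 log2 fold changes was -0.83, and it was not tested, because the set was chosen for it.

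The effects of 6 genes differed between Nlrp3 mutants and null mutants, each set against its own controls and tested with limma in the joint fit. The difference of log2 fold changes was 1.27 for Herpud1, 0.67 for Dnajb9, 0.41 for Xbp1 and 0.25 for Atf4, which were higher in the Nlrp3 mutants. It was -0.58 for Pdia4 and -0.49 for Hyou1, which were lower there. Experiment, genotype and the sex of the mutants cannot be told apart in these differences.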

How the results depend on the processing

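Of 1200 member log2 fold changes under alternatives, 1107 counted as unchanged and 47 changed sign. Unchanged meant the same direction and side of the threshold. For Sdf2l1, which has no test, it meant a value that moved by less than the residual SD of the main fit. Setting every library to equal total FPKM moved most: it turned Atf4 in Nlrp3 mutants to -0.019; Hspa5, Manf and Ddit3 in het mutants to -0.13, -0.065 and -0.13; Hyou1, Dnajb9 and Manf in null mutants against controls to 0.043, 0.0038 and 0.014; Manf, Atf4 and Ddit3 in null against het mutants to 0.079, 0.12 and 0.18; and the Nlrp3 minus null difference of Ddit3 to -0.0051. It called 6 members in het mutants, adding Hyou1 and Atf4 as lower, 5 in null against het mutants, adding Hyou1 and Pdia4 as higher, 7 in the Nlrp3 minus null difference, adding Hspa5 and Manf as lower and losing Atf4, and 1, Hyou1, in the Nlrp3 minus het difference; the cause was not tested. In null mutants against controls, Hyou1 became 0.00051 with median-of-ratios scaling, 0.013 in the robust fit and 0.10 in the libraries without Xist, where Manf was 0.050, and Ddit3 -0.013 in the robust fit. In null against het mutants, Hspa5 was -0.024 with the libraries with Xist. The genes called in null mutants against controls were 270, and 177 at a mean of at least 5 FPKM and 420 in the robust fit.

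Correlations with Sdf2l1 within groups fell without the 2 farthest libraries (Hspa5 0.298, Hyou1 0.455, Pdia4 0.316, and Xbp1 turning to -0.125). Calls were also lost in the first experiment alone (Hspa5 0.722, Hyou1 0.597, Pdia4 0.769, Manf 0.756), in the second alone (0.797, 0.907, 0.792 and 0.945 for the same genes, with Herpud1 at -0.049 and Ddit3 at 0.031), and at equal total FPKM (0.604, 0.651, 0.632 and 0.712), an alternative chosen after seeing the data. In each experiment alone fewer libraries entered. For Hspa5, Hyou1, Pdia4 and Manf, r was then higher than over all 17, except for Hyou1 and Manf in the first. Leaving out each library gave 0.361 to 0.740 for Hspa5, 0.514 to 0.809 for Hyou1, 0.521 to 0.797 for Pdia4 and 0.630 to 0.870 for Manf.

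Leaving out each library gave these lowest and highest log2 fold changes. In het mutants they were -0.067 and 0.0069 for Atf4, -0.034 and 0.070 for Ddit3, and -0.019 and 0.10 for Hspa5. In null mutants against controls they were -0.069 and 0.071 for Ddit3, -0.081 and 0.00081 for Dnajb9, -0.020 and 0.11 for Herpud1, -0.061 and 0.14 for Hspa5, -0.087 and 0.036 for Hyou1, -0.14 and 0.023 for Manf, and -0.13 and 0.011 for Pdia4. In null against het mutants they were -0.097 and 0.044 for Ddit3 and -0.091 and 0.11 for Hspa5. For the Nlrp3 minus het difference they were -0.092 and 0.30 for Herpud1 and -0.034 and 0.063 for Xbp1, and between 265 and 1338 genes and between 0 and 2 members were called.

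Replicate numbers are shared across groups, but same-numbered libraries did not deviate together (correlations -0.101 to 0.269) and few correlated best with their own number (1 of 3, 0 of 3, 1 of 4 and 1 of 3 pairs in the 4 comparisons). With the replicate number as a block, 7009 genes were called in Nlrp3 mutants, 7278 in het mutants, 225 in null mutants against controls, 6807 in null against het mutants, 178 in the Nlrp3 minus het difference and 5594 in the Nlrp3 minus null difference. The members called were then 6, 3, 0, 3, 0 and 6 in the same order, with Manf lost in Nlrp3 mutants (limma adjusted p = 0.0555) and Pdia4 in het mutants (0.0725). Depth is known only in relative terms, and 3 or 4 libraries a group limit what small changes can pass.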

Other observations

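Heat shock genes outside the ER were a further group of chaperones. Of 18 tested genes of the cytosol and mitochondria, 2 were called higher and 7 lower in Nlrp3 mutants against Control lungs, and 4 higher and 6 lower in het mutants against Il18r1 controls; at equal total FPKM these counts were 1 and 11, and 2 and 9. Over all genes, as deposited, 28.0% were higher and 27.6% lower in Nlrp3 mutants, and 27.3% higher and 28.9% lower in het mutants. The 5 that were lower in both, Bag3, Chordc1, Dnaja1, Hsph1 and Stip1, include cochaperones of HSP70 and HSP90. No share of all genes called lower in both is given beside this count. Bag3, which releases clients from HSP70, averaged 15.0 ± 0.951 FPKM in Nlrp3 mutants and 24.7 ± 1.06 FPKM in Control lungs (SD, n = 3 each), with a log2 fold change of -0.69 ± 0.0642 (SE), limma adjusted p = 9.11e-05. In het mutants its log2 fold change was -0.47 ± 0.0626 (SE), limma adjusted p = 5.81e-05, and in null against het mutants 0.35 ± 0.0626 (SE), limma adjusted p = 0.000535. Dnaja1, a J-domain cochaperone, averaged 17.5 ± 0.894 FPKM in het mutants (SD, n = 3) and 25.3 ± 2.83 FPKM in null mutants (SD, n = 4), against 25.1 ± 1.50 FPKM in Il18r1 controls (SD, n = 4).

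Hspb1 (HSP25), a small heat shock protein, went the other way, with Hspa4l the other gene called higher in both. Hspb1 averaged 79.6 ± 3.02 FPKM in Nlrp3 mutants and 48.6 ± 1.65 FPKM in Control lungs (SD, n = 3 each), with a log2 fold change of 0.70 ± 0.0518 (SE), limma adjusted p = 3.4e-05. The effects of Hspb1 and Stip1 differed between Nlrp3 mutants and het mutants, by 0.40 ± 0.0967 (SE), limma adjusted p = 0.0256 for Hspb1 and -0.35 ± 0.0948 (SE), limma adjusted p = 0.0372 for Stip1. In null mutants against Il18r1 controls none of the 18 genes was called by limma, with 1, Cryab, at an unadjusted p under 0.05, where 1.97% of all genes were called and 10.3% had an unadjusted p under 0.05.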
